A study of Homo sapiens with 21 samples.

Results

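The genes described here are the long noncoding RNA and small nucleolar RNA (snoRNA) genes on arrays of 4 breast cancer lines, all established human lines, after 6 hours with THZ1. THZ1 binds CDK7 covalently and inhibits it, and CDK7 is the kinase subunit of TFIIH, which phosphorylates RNA polymerase II as transcription starts. They were chosen by symbol in the platform annotation (symbols starting with SNORA, SNORD, SNHG or LINC and a number, microRNA host genes, symbols ending in -AS1, and MALAT1), which gave 308 genes on 431 probe sets of a 3' expression array. Of these, 92 had a highest group mean at or above log2 5.84 (an intensity of 57.4) and were tested, among 12644 tested genes of 18132. Just above that minimum lay LINC03042 (5.86) and SNORA2C (5.89), and just below it LINC00839 (5.83) and SNORA30 (5.82). The tested set holds 35 of 98 antisense genes, 29 of 151 LINC genes, 15 of 44 snoRNA genes, 9 of 10 snoRNA host genes, 3 of 4 microRNA host genes and MALAT1, and NEAT1 and GAS5 are not analysed here. The other 216 are below the minimum in all 12 groups.

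Of the lines, MDA-MB-468 and BT-549 are triple-negative and the other two, ZR-75-1 and T47D, are oestrogen receptor positive. All were grown in RPMI-1640 with serum and received DMSO, 50 nM THZ1 or 250 nM THZ1, with 2 arrays per line and dose except BT-549, which had 1 and is given without a test. The labels do not say whether paired arrays came from separate cultures, and p-values therefore rest on a spread between arrays that may be technical only. For ZR-75-1 and for T47D the source name field reads MDA-MB-468. Titles and cell line fields were followed, and with DMSO ESR1 intensity was 442 in ZR-75-1 and 906 in T47D against 30.8 in MDA-MB-468, where KRT5 was 3505. Mean intensity per array lay between 326 and 343, and the number of arrays limits the precision.

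Long noncoding RNAs are transcribed by RNA polymerase II and, in many cases, capped, spliced and polyadenylated like messenger RNAs. Most human snoRNAs have no promoter of their own: they are cut from the introns of a host transcript and guide chemical modification of ribosomal and spliceosomal RNA, with box C/D (SNORD) snoRNAs directing methylation and box H/ACA (SNORA) snoRNAs directing pseudouridylation. Genes of the SNHG family are hosts whose spliced RNA is often noncoding and short-lived, because nonsense-mediated decay removes it. MALAT1 is an abundant nuclear RNA of splicing speckles whose 3' end is cut by RNase P rather than polyadenylated in the usual way. RNA was copied here from oligo(dT) primers, so a snoRNA value covers only RNA that those primers copied, and it cannot tell mature snoRNA from a piece of its host transcript.

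Start-site windows of the 8 snoRNA host genes with a RefSeq promoter (GRCh38.p14) are shown because SNHG12 and SNHG7 were among the largest losses. Host genes are also known for a pyrimidine tract at the start of their RNA. Each window runs from 30 bases before the annotated start, which is base 31, and capitals mark the longest run of C and T between 10 bases before and 20 bases after it.
SNHG12, chr1:28581844-28581903, minus strand: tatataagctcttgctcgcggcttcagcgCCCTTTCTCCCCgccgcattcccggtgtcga
SNHG7, chr9:136728155-136728214, minus strand: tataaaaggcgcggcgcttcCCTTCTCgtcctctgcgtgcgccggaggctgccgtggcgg
SNHG1, chr11:62855856-62855915, minus strand: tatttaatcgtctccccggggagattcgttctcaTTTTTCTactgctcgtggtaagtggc
SNHG8, chr4:118278732-118278791, plus strand: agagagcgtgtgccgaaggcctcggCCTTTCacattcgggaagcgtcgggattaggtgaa
SNHG32, chr6:31834886-31834945, plus strand: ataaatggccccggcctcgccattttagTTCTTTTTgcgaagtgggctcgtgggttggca
SNHG17, chr20:38435299-38435358, minus strand: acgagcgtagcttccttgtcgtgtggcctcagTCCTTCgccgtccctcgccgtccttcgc
SNHG29, chr17:16438957-16439016, plus strand: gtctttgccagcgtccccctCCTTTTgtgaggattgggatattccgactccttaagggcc
SNHG11, chr20:38446624-38446683, plus strand: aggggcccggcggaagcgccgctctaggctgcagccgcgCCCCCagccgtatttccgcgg
The capitals span 12 bases in SNHG12, 8 in SNHG32, 7 in SNHG1 and SNHG7, and 5 in SNHG11. In SNHG7 and SNHG29 the run begins before the searched stretch and is cut at its edge, so these lengths do not rank the tracts. Counted from base 31 itself, and so leaving out any capitals before it, a C followed by pyrimidines over at least 5 bases in all occurs in SNHG12 (11 bases) and SNHG32 (6 bases), 2 of 8 host genes (25.0%), against 4.04% of all 27305 RefSeq promoters. The letters TATAAA lie in the 300 bases (250 before and 50 after the start) of SNHG1, SNHG7 and SNHG11, 3 of 8 (37.5%), against 12% of all promoters. A match is a description of letters and not a binding site.

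Promoters of the 4 antisense and LINC genes that fell in all 3 replicated lines at 250 nM are shown because these genes moved together. Capitals mark matches on either strand to 5 motifs: the GC box core GGGCGG, the CCAAT box, the TATA box TATAAA, the E-box CACGTG and the ETS core CCGGAAG. The annotated start is base 251.
LIPT2-AS1, chr11:74493130-74493429, plus strand: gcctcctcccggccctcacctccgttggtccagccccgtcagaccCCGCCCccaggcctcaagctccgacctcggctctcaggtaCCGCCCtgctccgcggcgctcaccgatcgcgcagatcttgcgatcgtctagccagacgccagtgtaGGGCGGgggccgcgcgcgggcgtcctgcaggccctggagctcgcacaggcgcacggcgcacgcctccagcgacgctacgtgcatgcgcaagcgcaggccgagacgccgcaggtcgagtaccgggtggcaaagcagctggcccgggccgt
ST20-AS1, chr15:79922521-79922820, plus strand: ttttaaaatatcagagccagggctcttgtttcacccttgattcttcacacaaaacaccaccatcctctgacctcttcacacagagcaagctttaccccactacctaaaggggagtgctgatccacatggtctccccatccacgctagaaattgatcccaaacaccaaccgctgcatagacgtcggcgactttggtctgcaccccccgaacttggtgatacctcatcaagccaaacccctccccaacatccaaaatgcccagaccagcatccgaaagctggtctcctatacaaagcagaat
MRPL20-AS1, chr1:1399280-1399579, plus strand: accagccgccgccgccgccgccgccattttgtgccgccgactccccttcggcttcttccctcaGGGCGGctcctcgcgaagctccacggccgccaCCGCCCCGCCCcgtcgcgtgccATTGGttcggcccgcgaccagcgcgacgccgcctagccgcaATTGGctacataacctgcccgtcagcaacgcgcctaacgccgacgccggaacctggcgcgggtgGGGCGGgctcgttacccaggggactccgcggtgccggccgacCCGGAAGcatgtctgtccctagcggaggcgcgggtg
LINC00847, chr5:180830707-180831006, plus strand: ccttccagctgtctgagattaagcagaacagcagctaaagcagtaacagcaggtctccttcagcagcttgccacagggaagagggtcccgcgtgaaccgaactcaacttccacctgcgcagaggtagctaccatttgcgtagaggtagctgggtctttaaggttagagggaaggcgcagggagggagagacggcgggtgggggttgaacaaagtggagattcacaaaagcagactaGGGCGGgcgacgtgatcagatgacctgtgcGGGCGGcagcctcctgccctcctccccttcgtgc
GGGCGG, the core letters bound by SP-family factors, is in LIPT2-AS1, MRPL20-AS1 and LINC00847, and in 44.6% of all promoters. CCAAT (35.7% of all promoters) and CCGGAAG (10.7%) are in MRPL20-AS1 among the 4. ST20-AS1 holds none of the 5 motifs in this window. RefSeq promoters matched 62 of the 92 genes, and over these GGGCGG occurred in 53.2%, CCAAT in 22.6% and TATAAA in 8.06%.

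At 250 nM the genes were lower in 9 of 92 cases and higher in 6 in MDA-MB-468, lower in 20 and higher in 6 in ZR-75-1, and lower in 12 and higher in 3 in T47D (limma, adjusted p under 0.05 over all genes tested). The same call was made as lower in 30.3%, 42.8% and 33.7% of all genes tested and as higher in 9.54%, 9.93% and 9.61%, in that order of lines. The genes' own shares were 9.78%, 21.7% and 13% lower and 6.52%, 6.52% and 3.26% higher. Mean intensity was alike on all arrays (326 to 343), so changes are relative to that mean and are not read as per cell. The median log2 change of the 92 genes was -0.00044, -0.010 and 0.096, beside -0.070, -0.18 and -0.077 for all genes tested. At 250 nM in BT-549 SNHG12 and SNHG7 were more than 2-fold lower, beside 8.94% of all genes. SNHG17 and SNORA65 were more than 2-fold higher there, beside 0.182% of all genes. SNHG17 reached the minimum in that group only, and SNORA65 only in 250 nM groups, BT-549 among them. Their gains therefore cannot be read against the 0.182%. At 50 nM SNHG12 and SNHG7 were past 2-fold lower in BT-549 (3.24% of all genes, with 0.174% past 2-fold higher). Of the 92 genes 14 reached the minimum in treated groups only, and these make up 4 of the 6 higher genes in MDA-MB-468, 3 of 6 in ZR-75-1 and 2 of 3 in T47D. The higher counts therefore lean on genes that only a treated group let in. That group was not always the one counted: SNORA80E, higher in MDA-MB-468, reached the minimum only in ZR-75-1 at 50 nM, and SNORA3B, higher in ZR-75-1, only in MDA-MB-468 at 250 nM. The 6 higher genes in MDA-MB-468 became 2 or 3 without any of its DMSO or 250 nM arrays, and the 6 in ZR-75-1 became 3 without its first 250 nM array. The genes were also dimmer than the rest: with DMSO their median log2 level was 6.09 in MDA-MB-468 against 7.69 for all genes tested, 6.09 against 7.57 in ZR-75-1 and 6.13 against 7.73 in T47D, and the part of this in the counts was not tested.

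**Figure D1:**
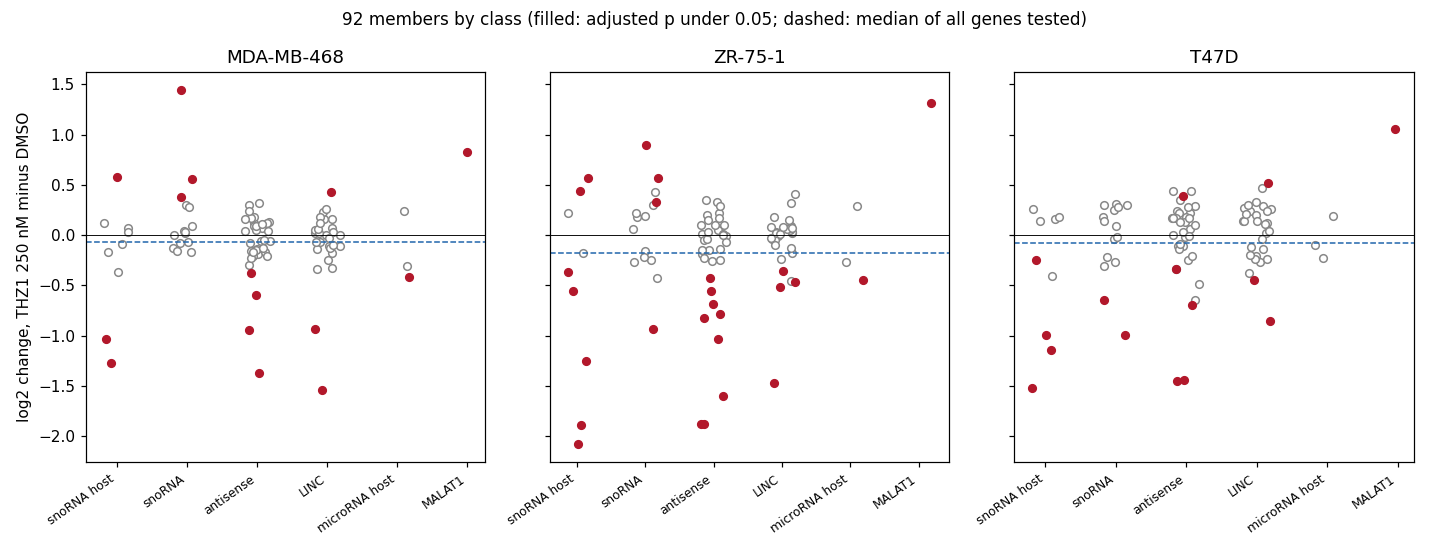
Log2 change at 250 nM THZ1 against DMSO (vertical axis) of the 92 genes by class in 3 lines, 2 arrays per group; filled points have an adjusted p under 0.05 and the dashed line is the median of all genes tested. Host genes and antisense genes hold most of the low points, and MALAT1 lies above 0 in each line.

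The split between lower and higher depends on scaling. When every array was centred on a common median, 7 genes were lower and 17 higher in MDA-MB-468, 13 and 27 in ZR-75-1, and 9 and 17 in T47D. Under quantile normalization these were 8 and 15, 13 and 33, and 11 and 24. Centring moved the median change of all genes from -0.070 to 0.13 in MDA-MB-468, from -0.18 to 0.072 in ZR-75-1 and from -0.077 to 0.045 in T47D. Under each of the 3 scalings the share of these genes called lower was below the share of all genes called lower, whereas the share called higher passed that of all genes in ZR-75-1 after centring (29.3% against 28.2%) and after quantile normalization (35.9% against 32.5%).

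**Figure D2:**
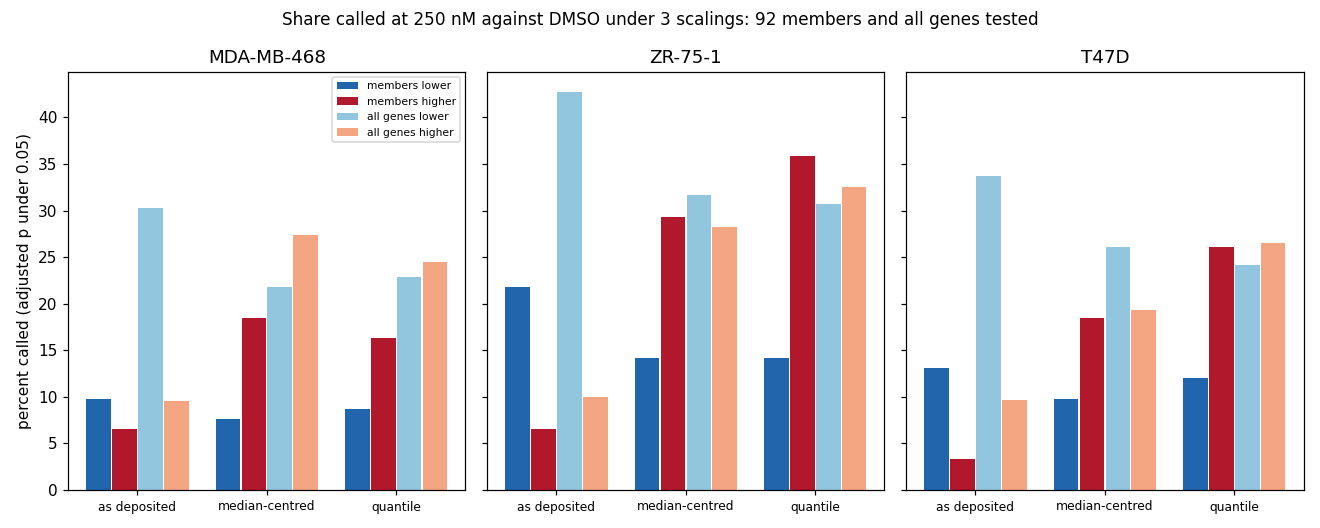
Percent of the 92 genes and of all genes tested called lower or higher at 250 nM against DMSO (bars from 0) under 3 scalings in 3 lines. The dark blue bars for the 92 genes lie below the light blue bars for all genes under each scaling.

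At 50 nM fewer genes moved. In MDA-MB-468 10 were lower and 3 higher (14.6% and 4.42% of all genes tested), in ZR-75-1 9 and 0 (5.68% and 2.79%), and in T47D 5 and 1 (7.56% and 1.99%). The count of 0 in ZR-75-1 is limma's, with 5 genes higher at an unadjusted p under 0.05. In ZR-75-1 the 9 lower genes became 4 without either DMSO array, 5 without the first 50 nM array and 3 without the second, so that count rests on single arrays. In T47D the 5 lower genes became 1 or 2 without a DMSO array, and 2 or 3 without a 50 nM array. SNHG12 and LINC00205 were lower in all 3 lines at 50 nM, a pattern of 2.83% of all genes tested. At 250 nM SNHG12, SNHG7, LIPT2-AS1, ST20-AS1, MRPL20-AS1 and LINC00847 were (23.0% of all genes), and MALAT1 was the gene higher in all 3 (3.59%). At 250 against 50 nM 7 genes were lower and 6 higher in MDA-MB-468 (23.2% and 5.73% of all genes tested), 14 and 5 in ZR-75-1 (41.7% and 6.64%), and 7 and 1 in T47D (27.2% and 4.59%). SNHG12 (-0.37, -1.29 and -1.18) and SNHG7 (-0.34, -1.83 and -0.80) fell between the doses in each of these lines, so most of their loss in ZR-75-1 and in T47D came above 50 nM. No call at either dose was made in any of the 3 lines for 57 of the 92 genes (62.0%), against 33.2% of all genes tested. Among the 57 were 24 of 35 antisense, 22 of 29 LINC, 8 of 15 snoRNA and 2 of 9 host genes. The classes also differ in level: with DMSO the median log2 was 9.70 in host genes, 5.99 in antisense, 5.77 in LINC and 5.79 in snoRNA genes. The part of brightness in these counts was not tested.

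**Figure D3:**
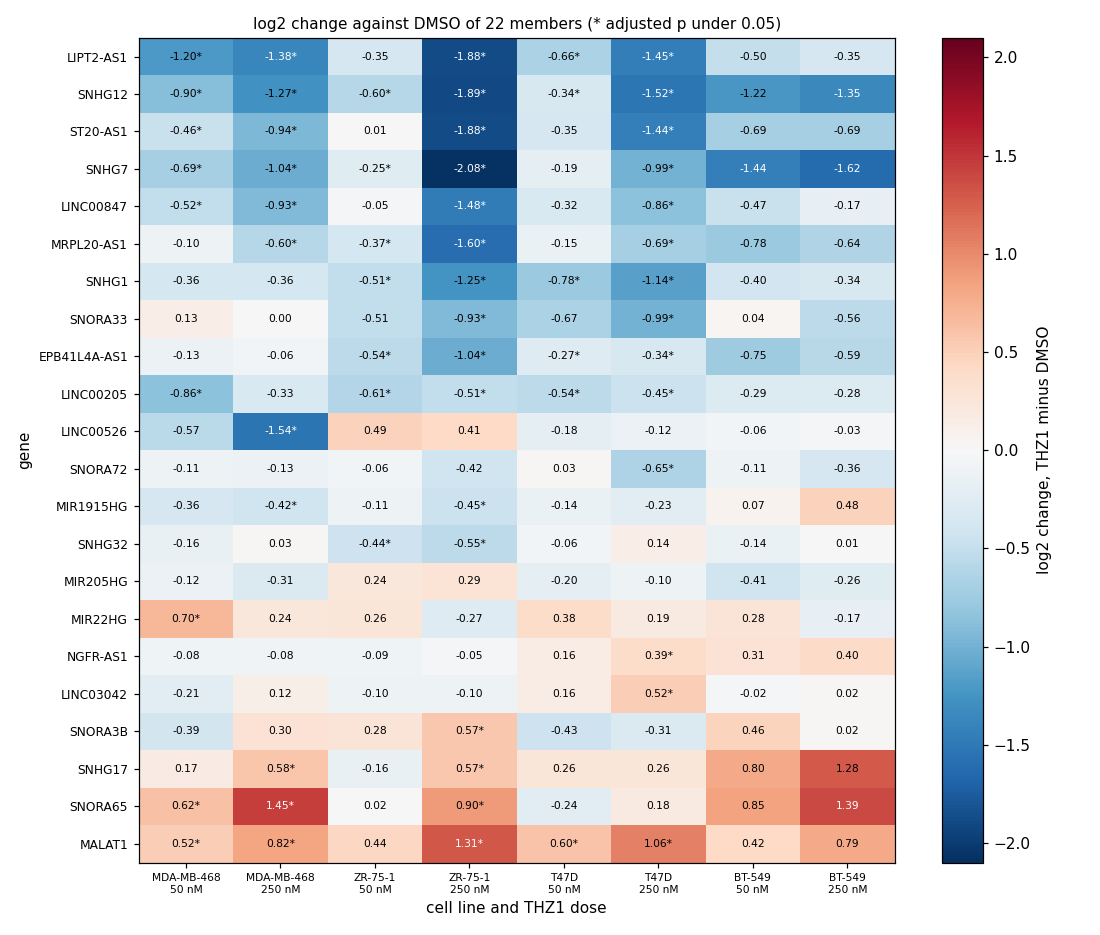
Log2 change against DMSO of 22 named genes (rows) in 4 lines at 2 doses (columns); an asterisk marks an adjusted p under 0.05, and BT-549, with 1 array per dose, has no test. LIPT2-AS1, SNHG12, ST20-AS1 and SNHG7 head the losses and MALAT1 and SNORA65 the gains.

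Among the snoRNA host genes SNHG12 and SNHG7 fell furthest. SNHG12 hosts 4 snoRNAs (SNORD99, SNORA61, SNORA44 and SNORA16A, by RefSeq GRCh38.p14 spans). In MDA-MB-468 its intensity was 1169 and 1301 with DMSO, 681 and 643 at 50 nM, and 531 and 489.7 at 250 nM. In ZR-75-1 it was 784 and 879.6, then 520.1 and 575, then 223 and 224. In T47D it was 513 and 524, then 424 and 398, then 177 and 185. No treated array reached a DMSO array of its line, and the levels stepped down with dose in each line. The log2 change at 250 nM was -1.27 in MDA-MB-468 (SE 0.079, adjusted p = 1.79e-09), -1.89 in ZR-75-1 (adjusted p = 1.09e-11) and -1.52 in T47D (adjusted p = 5.63e-10), all by limma. BT-549 read 1254, 539.9 and 491, and a second SNHG12 probe set changed by -1.18, -1.70, -1.31 and -1.44 in MDA-MB-468, in ZR-75-1, in T47D and in BT-549.

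SNHG7, which contains SNORA17A and SNORA17B, went from 855 and 856 with DMSO to 203 and 202 at 250 nM in ZR-75-1. In MDA-MB-468 it went from 1051 and 1086 to 509 and 533, and in T47D from 1517 and 1356 to 702 and 743. The pairs are far apart in each line, and BT-549 read 361, 133 and 117 from DMSO to 250 nM. The log2 change was -2.08 in ZR-75-1 (SE 0.062, limma adjusted p = 3.61e-13), -1.04 in MDA-MB-468 and -0.99 in T47D. A second SNHG7 probe set did not follow in ZR-75-1, where it changed by 0.24, and changed by -0.33 in MDA-MB-468 and -0.64 in T47D. The larger loss in ZR-75-1 therefore rests on 1 probe set: with the mean of both, its difference from MDA-MB-468 was 0.24 (limma adjusted p = 0.135).

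SNHG1, host of 8 box C/D snoRNAs, differed between lines already with DMSO, at 1348 and 1473 in MDA-MB-468 against 527 and 514 in ZR-75-1 and 344 and 373 in T47D. At 250 nM it read 999 and 1200.2 in MDA-MB-468, 254 and 188 in ZR-75-1, and 144 and 183 in T47D. The treated arrays were lower in each line. The change was -1.25 in ZR-75-1 (limma adjusted p = 1.22e-06) and -1.14 in T47D (adjusted p = 6.75e-06), and -0.36 in MDA-MB-468, which did not pass (adjusted p = 0.0531) but did under quantile normalization (limma adjusted p = 0.0208). The change in MDA-MB-468 was smaller in size than in ZR-75-1 by 0.89 (SE 0.201, limma adjusted p = 0.00417) and than in T47D by 0.78 (adjusted p = 0.0157). The second of these differences missed the threshold without any of 4 arrays (0.61 to 0.72) and both did under quantile normalization.

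Of the other host genes, SNHG8 (host of SNORA24) was lower in ZR-75-1 (-0.36) and T47D (-0.25) at 250 nM, and SNHG32 (host of SNORD48 and SNORD52) in ZR-75-1 (-0.55). SNHG29 was higher in ZR-75-1 (0.44, limma adjusted p = 0.0321). SNHG17, a dim gene that contains 4 SNORA71 copies, went from 32.2 and 27.8 to 48.9 and 41.0 in MDA-MB-468 and from 37.7 and 37.1 to 57.0 and 54.1 in ZR-75-1, and BT-549 read 27.0 with DMSO and 65.8 at 250 nM. Its changes were 0.58 and 0.57 (limma adjusted p = 0.00975 and 0.00796), and in T47D 0.26 did not pass. SNHG17 reached the minimum in 1 group, BT-549 at 250 nM, where it was high, so its place among the genes tested rests on a rise. With no minimum the adjusted p (limma) was 0.0133 and 0.0109. Without the second DMSO array or the first 250 nM array of MDA-MB-468 its call there was lost (0.48 and 0.45).

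**Figure D4:**
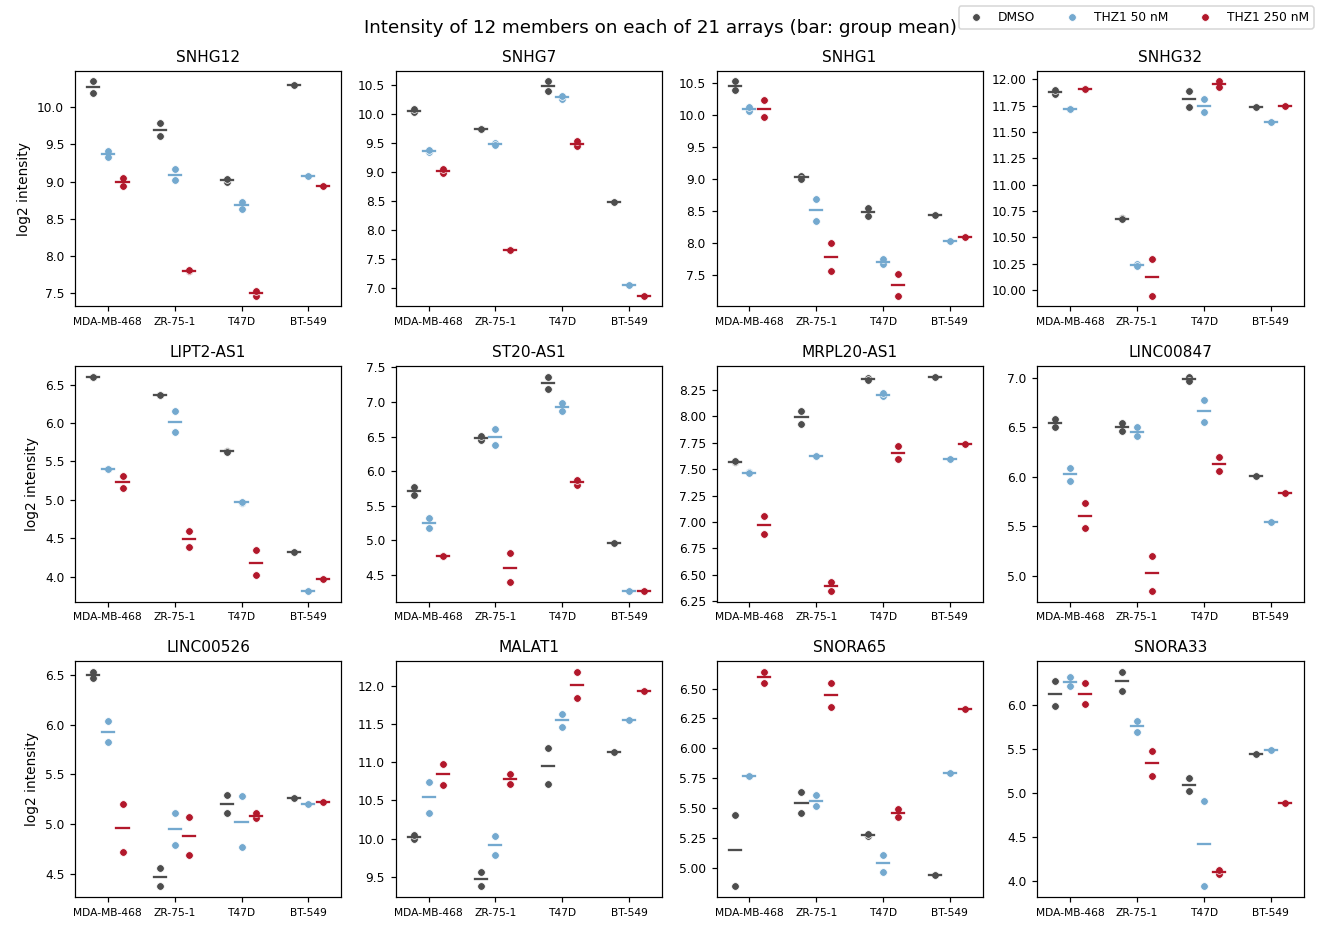
Log2 intensity (vertical axis) of 12 genes on each of 21 arrays by line and dose; points are arrays and bars are group means, and BT-549 has 1 array per dose. SNHG12 and SNHG7 step down with dose in each line, MALAT1 steps up, and LINC00526 falls in MDA-MB-468.

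Antisense genes lie on the opposite strand of, and are named for, a partner gene. LIPT2-AS1 read 97.2 and 97.4 with DMSO in MDA-MB-468, 42.4 and 42.2 at 50 nM, and 35.6 and 39.5 at 250 nM, a change of -1.38 at the higher dose (SE 0.143, limma adjusted p = 8.23e-07). In ZR-75-1 it went from 82.7 and 82.7 to 24.1 and 20.8, and in T47D from 49.6 and 49.5 to 20.3 and 16.2. Treated arrays of ZR-75-1 and T47D were not above the mean of 23 background probe sets, so the fall there was at least 2.78-fold and at least 1.75-fold. A bound of this kind sets the brighter group against the higher of gene and background on each dim array. In BT-549 the gene was already dim with DMSO, at 19.9.

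ST20-AS1 read 87.5 and 91.2 with DMSO and 28.2 and 21.01 at 250 nM in ZR-75-1, a fall of at least 2.9998-fold. In T47D it went from 146 and 165 to 55.8 and 58.7, and in MDA-MB-468 from 54.5 and 50.4 to 27.3 and 27.4. The groups did not overlap in any line, with changes of -1.44 in T47D and -0.94 in MDA-MB-468 (limma adjusted p = 4.98e-07 and 4.72e-05). A second, dimmer ST20-AS1 probe set below the minimum changed by 0.14, 0.13 and -0.18 in MDA-MB-468, in ZR-75-1 and in T47D. MRPL20-AS1 went from 243 and 266 to 81.5 and 86.4 in ZR-75-1 (-1.60), from 189 and 191 to 134 and 118 in MDA-MB-468 (-0.60), and from 329 and 325 to 193 and 211 in T47D (-0.69). Its second probe set fell too, by 0.96 in ZR-75-1, 0.38 in MDA-MB-468 and 0.60 in T47D on the log2 scale.

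EPB41L4A-AS1, which contains SNORA13, read 437 and 469 with DMSO and 217 and 224 at 250 nM in ZR-75-1. Its change was -1.04 there (limma adjusted p = 1.41e-08), -0.34 in T47D and -0.06 in MDA-MB-468. The change in MDA-MB-468 differed from that in ZR-75-1 by 0.98 (SE 0.114, limma adjusted p = 1.67e-05). AGAP2-AS1 (-0.83), UBQLN1-AS1 (-0.78), EXOC3-AS1 (-0.68), ARRDC1-AS1 (-0.56) and VASH1-AS1 (-0.43) were lower in ZR-75-1, and of these ARRDC1-AS1 was also lower in MDA-MB-468 (-0.38). NGFR-AS1 was the antisense gene called higher at 250 nM, in T47D (0.39, limma adjusted p = 0.0338). It reached the minimum in the treated T47D groups only, and its call was lost with no minimum (adjusted p = 0.0504) and without the second DMSO array (0.31) or the second 250 nM array (0.28).

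Partner genes were tested for 31 of the 35 antisense genes. LIPT2, a mitochondrial lipoyltransferase gene, fell with LIPT2-AS1 (-1.60 in MDA-MB-468, -1.52 in ZR-75-1 and -1.09 in T47D), and the annotated starts of the pair lie 344 bases apart on opposite strands. MRPL20 changed by 0.18, -0.03 and -0.18 and ST20 by 0.03, -0.14 and -0.24 in the same order, and no change of MRPL20 or ST20 passed the test. At 250 nM both members of a pair were lower in 1 pair in MDA-MB-468, 3 in ZR-75-1 and 1 in T47D. The antisense gene was lower with a partner not called in 3, 6 and 3 pairs. Partner genes were lower in 6, 11 and 7 of the 31 pairs and higher in 2, 2 and 1, in the same order. Of all genes tested 30.3%, 42.8% and 33.7% were lower and 9.54%, 9.93% and 9.61% higher. Of 24 pairs with both starts in the promoter table, 11 had starts on opposite strands within 1000 bases. Among these, KIF25-AS1, RUSC1-AS1 and ZNF667-AS1 diverge from their partner. The rest, with LIPT2-AS1, overlap or converge.

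**Figure D5:**
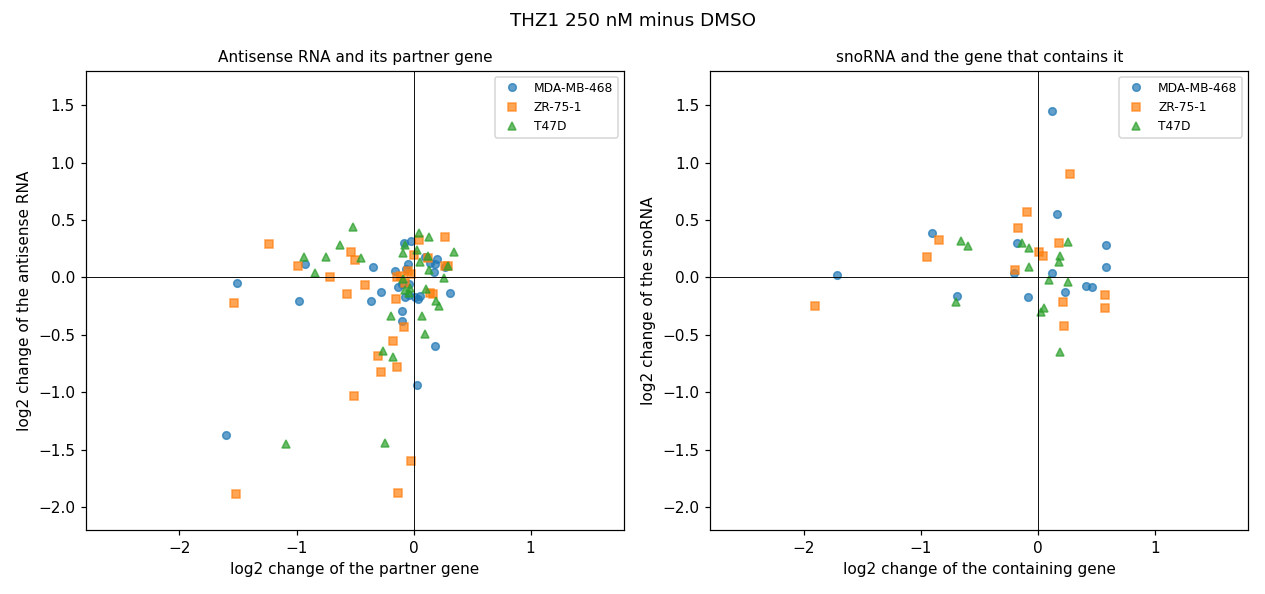
Left, log2 change at 250 nM against DMSO of antisense genes (vertical) and partner genes (horizontal), 31 pairs per line; right, snoRNAs (vertical) and the gene containing them (horizontal), 14 pairs per line; markers are 3 lines. LIPT2-AS1 is the pair at the lower left, and SNORA65 stands high with its host RPL12 near 0.

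LINC genes are intergenic transcripts, most of unknown function. LINC00847 read 93.2 and 88.2 with DMSO and 36.9 and 28.8 at 250 nM in ZR-75-1. It went from 95.7 and 90.8 to 44.8 and 53.3 in MDA-MB-468, and from 129 and 125 to 73.5 and 66.8 in T47D. Treated arrays were lower throughout, with changes of -1.48, -0.93 and -0.86 (limma adjusted p = 8.50e-08, 2.86e-05 and 7.09e-05). LINC00205 changed more at 50 than at 250 nM in MDA-MB-468, from 138 and 143 with DMSO to 78.0 and 77.4 (-0.86) and then 131 and 96.0 (-0.33, not called). The rise from 50 to 250 nM there was 0.53 and passed the test. LINC00205 is read by a probe set that may match several transcripts, and its calls at 250 nM in ZR-75-1 (-0.51) and T47D (-0.45) were lost after centring (-0.26 and -0.33) and quantile normalization (-0.010 and -0.19). They were also lost without the first DMSO or the second 250 nM array of ZR-75-1 (-0.47 and -0.33), and without either DMSO array or the first 250 nM array of T47D (-0.46, -0.44 and -0.27). Its second, dimmer probe set did not fall at 50 nM in MDA-MB-468 (0.22). LINC01000 (-0.46) and LINC02875 (-0.36) were lower in ZR-75-1, and LINC01118 (0.43), at the minimum in treated groups only, was higher in MDA-MB-468.

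LINC00526 fell in MDA-MB-468, from 92.5 and 88.6 with DMSO to 56.6 and 65.6 at 50 nM and 26.4 and 36.8 at 250 nM (-1.54, SE 0.207, limma adjusted p = 1.45e-05). With DMSO it read 23.6 and 20.7 in ZR-75-1 and 34.5 and 39.3 in T47D, so the 250 nM level in MDA-MB-468 overlapped the untreated level of T47D. Its change differed from that in ZR-75-1 by -1.95 (limma adjusted p = 0.000157) and from that in T47D by -1.42 (adjusted p = 0.00365); the untreated arrays of ZR-75-1 were not above background. LINC03042, at the edge of the minimum and above it in T47D at 250 nM only, was higher in T47D (0.52), and with the mean of its 3 probe sets the change was -0.0058.

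MALAT1 was the gene of the set called higher in each replicated line, and its probe sets disagreed. Its promoter is shown because this is the highest riser common to the lines, with GGGCGG or its complement in capitals and the start at base 251.
MALAT1, chr11:65497488-65497787, plus strand: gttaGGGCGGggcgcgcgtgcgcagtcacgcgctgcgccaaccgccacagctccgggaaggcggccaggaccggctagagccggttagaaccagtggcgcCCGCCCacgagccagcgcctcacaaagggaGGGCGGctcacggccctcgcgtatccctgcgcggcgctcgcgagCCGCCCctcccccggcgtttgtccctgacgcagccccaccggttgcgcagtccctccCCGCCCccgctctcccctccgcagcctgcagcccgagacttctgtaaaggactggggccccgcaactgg
The probe set with the highest mean read 1019 and 1056 with DMSO, 1297 and 1714 at 50 nM, and 2016 and 1672 at 250 nM in MDA-MB-468. It went from 667 and 758 to 1847 and 1685 in ZR-75-1, from 1681 and 2335 to 3662 and 4642 in T47D, and from 2249 to 3886 in BT-549. No 250 nM array overlapped DMSO, and the changes were 0.82, 1.31 and 1.06 (limma adjusted p = 0.000564, 2.80e-06 and 5.20e-05), which ranked 11, 3 and 10 from the top of all genes tested. The other 2 MALAT1 probe sets did not rise: 1 changed by 0.038, -0.053 and -0.083, and the other by -0.35, -0.54 and -0.74, and in BT-549 by -1.72. With the mean of the 3 probe sets no change passed (0.17, 0.24 and 0.078, limma adjusted p = 0.212, 0.0584 and 0.580). The rise was thus seen on 1 of 3 probe sets, and the cause of the disagreement was not tested.

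Among the snoRNAs SNORA65, a box H/ACA snoRNA inside the ribosomal protein gene RPL12, rose in MDA-MB-468 from 28.8 and 43.5 to 54.4 and 54.5 at 50 nM and 93.5 and 99.7 at 250 nM. In ZR-75-1 it went from 49.7 and 43.9 to 93.3 and 81.5 at 250 nM, in BT-549 from 30.7 to 80.4, and in T47D from 38.5 and 38.8 to 42.9 and 45.0. The change was 1.45 in MDA-MB-468 (SE 0.163, limma adjusted p = 2.00e-06), 0.90 in ZR-75-1 (adjusted p = 0.000183) and 0.18 in T47D, which did not pass. SNORA65 reached the minimum only in the 250 nM groups of ZR-75-1, BT-549 and MDA-MB-468, the groups where it is high, so it could be tested only because of these values. With no minimum the adjusted p (limma) was 1.25e-06 in MDA-MB-468 and 0.000188 in ZR-75-1. The change in MDA-MB-468 exceeded that in T47D by 1.26 (SE 0.231, limma adjusted p = 0.00147). RPL12 changed by 0.12, 0.27 and 0.19 in MDA-MB-468, in ZR-75-1 and in T47D.

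SNORA33, inside RPS12, went from 71.5 and 83.0 to 36.7 and 44.5 in ZR-75-1 (-0.93, limma adjusted p = 0.00258). In T47D it went from 35.9 and 32.5 to 16.9 and 17.5, below background, a fall of at least 1.21-fold. In MDA-MB-468 it read 63.4 and 77.2 with DMSO and 76.2 and 64.2 at 250 nM, so the groups overlapped. SNORA72, inside RPL30, was lower in T47D (-0.65), and that call was lost without the second array of either group (-0.63 and -0.54). SNORA84 (0.55) and SNORA80E (0.38) were higher in MDA-MB-468, and SNORA3B (0.57) and SNORD8 (0.33) in ZR-75-1. SNORA3B and SNORA80E reached the minimum in treated groups only. The SNORA3B call was lost without the second DMSO array (0.37) or without either 250 nM array (0.59 and 0.55).

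A containing gene was tested for 14 of the 15 snoRNAs. Over the 42 pairs of gene and line at 250 nM, the containing gene was lower in 9 and higher in 10. The snoRNA was lower in 1 and higher in 6. Those higher include SNORA65, SNORA3B and SNORA80E, which reached the minimum in treated groups only. SNORA33, called lower in ZR-75-1 and T47D, is not in these pairs because its containing gene RPS12 was not tested. The counts of snoRNAs and of containing genes are therefore not on equal terms. RPL27A, which contains SNORA3B, was read from a dim probe set, at log2 6.16 with DMSO in MDA-MB-468. RPL12 read 13.7 and RPL30 13.5 there. The RPL27A values at 250 nM, none of them called, are among the 42 pairs. SNHG17 contains both SNORA71C and SNORA71D; with each containing gene taken once, 9 of 39 values were lower and 8 higher. Of all genes tested 30.3% to 42.8% were lower and 9.54% to 9.93% higher, depending on the line. They were called in the same direction in 1 pair, where both were higher, and in opposite directions in 3 (limma calls). KANSL2, a chromatin complex subunit, changed by -1.72, -1.91 and -0.66, beside 0.02, -0.25 and 0.31 for SNORA2C inside it. KHDC4, a splicing factor, fell by 0.91, 0.95 and 0.70 on the log2 scale in MDA-MB-468, in ZR-75-1 and in T47D, and CHD8, a chromatin remodeller, fell by 0.69, 0.84 and 0.60, while SNORA80E and SNORD8 inside them were not called lower in any line.

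MicroRNA host genes carry a microRNA hairpin in their transcript. Mature sequences (RefSeq, GRCh38.p14) are shown to name the products of the 3 hosts, with the seed, bases 2 to 8, in capitals. No 2 of the 6 share a seed.
hsa-miR-22-3p, from MIR22HG, chr17:1713914-1713935: aAGCUGCCaguugaagaacugu
hsa-miR-22-5p, from MIR22HG, chr17:1713952-1713973: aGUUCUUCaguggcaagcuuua
hsa-miR-205-5p, from MIR205HG, chr1:209432166-209432187: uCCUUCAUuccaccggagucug
hsa-miR-205-3p, from MIR205HG, chr1:209432203-209432223: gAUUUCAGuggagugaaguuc
hsa-miR-1915-3p, from MIR1915HG, chr10:21496576-21496595: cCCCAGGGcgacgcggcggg
hsa-miR-1915-5p, from MIR1915HG, chr10:21496609-21496630: aCCUUGCCuugcugcccgggcc
MIR22HG rose at 50 nM in MDA-MB-468, from 108 and 106 to 173 and 173 (0.70, limma adjusted p = 0.000581), and read 118 and 136 at 250 nM (0.24, not called). Between 50 and 250 nM it fell by 0.46 on the log2 scale, which passed the test. Of its 5 probe sets 1 did not rise at 50 nM (-0.0050) and 3 rose by 0.47 to 0.65. MIR1915HG was lower at 250 nM in MDA-MB-468 (-0.42) and ZR-75-1 (-0.45), and both calls were lost after centring (-0.22 and -0.20), quantile normalization (-0.11 and -0.043) and leaving out the first DMSO or first 250 nM array of the line (-0.36 and -0.39, and -0.33 and -0.34). MIR205HG was not called at either dose in any line. The mature microRNAs were not measured on these arrays.

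With DMSO 18 of the 92 genes were lower and 16 higher in MDA-MB-468 than in the mean of ZR-75-1 and T47D, against 34.4% and 33.1% of all genes tested. MIR205HG, host of a microRNA known from basal epithelium, read 326 and 429 in MDA-MB-468, 36.4 and 26.3 in ZR-75-1, 106 and 118 in T47D and 42.3 in BT-549, a difference of 2.67 (SE 0.151, limma adjusted p = 1.76e-10). SNHG1 (1.71), LINC00526 (1.67) and MIR1915HG (1.42) were also higher in MDA-MB-468. Between ZR-75-1 and T47D 20 were lower and 16 higher in ZR-75-1 (37.1% and 25.9% of all genes). ZNF667-AS1, singled out after its values were seen, read 15.4 and 13.6 in ZR-75-1, not above background, and 456 and 455 in T47D, at least 16.8-fold higher in T47D.

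The change at 250 nM was compared between lines. Against ZR-75-1, MDA-MB-468 had 13 genes with a higher (less negative or more positive) change and 1 with a lower one (19.9% and 3.09% of all genes tested). Against T47D it had 2 and 1 (6.43% and 8.11%), and ZR-75-1 against T47D had 3 and 9 (2.44% and 19.8%). Averaged over 4 lines, with the line as a term and 1 mean per line and dose, 13 genes were lower and 5 higher at 250 nM (29.9% and 9.48% of all genes tested). SNHG12 (-1.51) and SNHG7 (-1.43) were lowest and MALAT1 (1.00) and SNORA65 (0.98) highest. The MALAT1 rise was seen on 1 of 3 probe sets, and a second SNHG7 probe set did not fall in ZR-75-1. Of the 5 higher genes, SNORA65 and SNHG17 reached the minimum in treated groups only, so the count of 5 leans on the minimum. Without MDA-MB-468 2 were higher, and without ZR-75-1 or T47D 8 or 7 were lower. At 50 nM SNHG8 alone was called (-0.33, lower), beside 0.316% of all genes lower and 0.182% higher, and the call was lost without any 1 of the lines.

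Genes of the machinery that makes, modifies or degrades these RNAs were read from lists chosen by function, to be set against the 30.3%, 42.8% and 33.7% of all genes tested that were lower and the 9.54%, 9.93% and 9.61% that were higher in the same order of lines. Of 23 tested genes of the nuclear exosome and its adaptors, which trim and degrade nuclear noncoding RNA, 15 were lower and 2 higher in MDA-MB-468, 17 and 1 in ZR-75-1, and 17 and 1 in T47D, (65.2%, 73.9% and 73.9% lower), with medians of -0.42, -0.80 and -0.39. ZCCHC8, the scaffold of the NEXT adaptor complex, fell by 2.58, 2.35 and 2.06 on the log2 scale in that order. Of 14 nonsense-mediated decay factors 2, 9 and 6 were lower (14.3%, 64.3% and 42.9%), below the share of all genes in MDA-MB-468 and above it in the other two lines, and 0 were higher by limma in each (1, 0 and 0 at an unadjusted p under 0.05), with SMG8 at -0.85, -1.87 and -2.22. Of 18 snoRNP proteins 5, 8 and 4 were lower, shares of 27.8%, 44.4% and 22.2% that lie near or below those of all genes. Higher were 6, 3 and 1 (33.3%, 16.7% and 5.56%), above the share of all genes in MDA-MB-468 and ZR-75-1 and below it in T47D. ZNHIT6, a box C/D assembly factor, changed by -0.50, -1.55 and -0.60. Of 35 protein-coding snoRNA hosts 4, 9 and 5 were lower and 7, 18 and 15 higher, shares lower (11.4%, 25.7% and 14.3%) below and shares higher (20%, 51.4% and 42.9%) above those of all genes, with PPAN at -2.83, -2.88 and -2.04. Of 18 paraspeckle and speckle proteins 6, 7 and 5 were lower (33.3%, 38.9% and 27.8%, near or below all genes) and 0, 1 and 2 higher by limma (1, 1 and 2 at an unadjusted p under 0.05), SON among the lower at -0.56, -1.07 and -0.93, and of 16 microRNA processing factors 5, 9 and 8 were lower (31.2%, 56.2% and 50%, the first near the share of all genes) and 0, 0 and 1 higher by limma (2, 1 and 1 at an unadjusted p under 0.05).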

How the data were processed

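RNA was measured on 21 arrays. The authors deposited 1 intensity per probe set on a linear scale, from MAS5 per the submitters' processing notes, with no version. How arrays were scaled, and a genome build, are not given in the sources used here. Per the labels' protocols a spike-in was added by cell number, but a fixed mass of RNA was amplified, so changes are not per cell.

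Intensities under 1 were set to 1, and log2 was taken. A gene was read from the probe set with the highest mean among those with 1 symbol, and 106 probe sets naming a member beside another gene were not used. A linear model in limma 3.58.1 (R 4.3.3) gave each of 9 groups a mean over 18 arrays, with trended eBayes moderation (residual degrees of freedom 9, prior 6.18) and Benjamini-Hochberg adjustment over 12644 genes per contrast. The 4-line fit used 12 group means (6 residual degrees of freedom). Groups and replicate numbers came from titles. Replicate arrays of a member differed by a median of 0.157 (log2). Bounds against background were added after seeing the data. The fit was tested on simulated data.

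Probe set suffixes s and x mark possible matches to several transcripts. Named genes are MALAT1, SNHG1, SNORA65, the 4 members per class with the largest moderated statistic at 250 nM, and the 3 most negative and 3 most positive called changes per dose contrast. Others are named as called members of a count. The members, lists and rule were chosen with earlier results of these data known. Alternatives were scaling, offset, filter, probe set rule, replicate block, fewer arrays and left-out arrays or lines.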

Additional observations from a re-analysis of the deposited data

Results flagged for a closer look

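The results below differed between 2 lines in the test of the difference of the 250 nM changes (limma, adjusted p under 0.05 over all genes), and each value is the log2 change in the first line minus that in the second. MDA-MB-468 minus ZR-75-1 was 1.04 for SNHG7, 1.00 for MRPL20-AS1, 0.98 for EPB41L4A-AS1, 0.94 for ST20-AS1, 0.89 for SNHG1, 0.62 for SNHG12, 0.58 for SNHG32, 0.54 for LINC00847, 0.51 for MIR22HG and -1.95 for LINC00526. MDA-MB-468 minus T47D was 1.26 for SNORA65, 0.78 for SNHG1 and -1.42 for LINC00526. ZR-75-1 minus T47D was -1.09 for SNHG7, -0.90 for MRPL20-AS1, -0.70 for EPB41L4A-AS1, -0.69 for SNHG32, -0.62 for LINC00847, -0.37 for SNHG12, 0.72 for SNORA65 and 0.88 for SNORA3B.

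The SNHG7 differences from ZR-75-1 missed the threshold with the mean of its probe sets (0.24 and -0.11). Those of LINC00847 and MIR22HG from MDA-MB-468, with adjusted p of 0.0498 and 0.0375, were lost after median-centring (0.49 and 0.46). For ST20-AS1 neither 250 nM array of ZR-75-1 and 1 of 2 of MDA-MB-468 was above background, and for LINC00526 neither DMSO array of ZR-75-1 and 1 of 2 at 250 nM in ZR-75-1 and in MDA-MB-468 were. These differences set levels against values that are only bounds, so their sizes are not exact. For LINC00847 1 of 2 arrays at 250 nM in ZR-75-1, and for SNORA3B 1 of 2 at 250 nM in T47D, was not above background. SNORA65 reached the minimum only at 250 nM in MDA-MB-468, BT-549 and ZR-75-1, where it was high. Its differences from T47D therefore use the values that let it in, and do not count as support. SNORA3B reached the minimum only at 250 nM in MDA-MB-468. Groups of 2 arrays are too small to look for outlying arrays.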

How the results depend on the processing

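Of 286 named changes over 13 contrasts 127 were called, and 76 of these kept direction and call under every alternative run. The scaling changed most counts of members called.

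At 250 nM the higher count went, after median-centring and quantile normalization, from 6 to 17 and 15 in MDA-MB-468, from 6 to 27 and 33 in ZR-75-1, from 3 to 17 and 24 in T47D, and from 5 to 27 and 39 over 4 lines. The lower count in ZR-75-1 went from 20 to 13 under both, and over 4 lines from 13 to 8 after centring. At 50 nM, centring left 5 of 10 lower in MDA-MB-468 and 2 of 5 in T47D (3 by quantile normalization), and 2 higher in T47D under both against 1. In ZR-75-1 1 was higher by quantile normalization and by the probe set mean against 0, and 3 were lower against 9 when only its own arrays were fitted. The probe set mean gave 0 higher in T47D at 50 nM. For differences between lines, MDA-MB-468 minus ZR-75-1 had 2 and 4 lower against 1; MDA-MB-468 minus T47D had 4 higher against 2 under both scalings and the probe set mean; ZR-75-1 minus T47D had 5 lower against 9 under both, and 5 and 7 higher against 3. Over 4 lines at 50 nM the lower count of 1 became 2 by quantile normalization, the offset of 16 and all probe sets, and 0 by the probe set mean or without any line; the higher count of 0 became 1 by quantile normalization, all probe sets and without ZR-75-1. At 250 nM, without ZR-75-1 8 and without T47D 7 were lower, and without MDA-MB-468 2 were higher.

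With 1 array left out, the ranges were 6 to 11 lower and 1 to 3 higher (MDA-MB-468, 50 nM), 2 to 6 higher (MDA-MB-468, 250 nM), 3 to 9 lower (ZR-75-1, 50 nM), 3 to 7 higher (ZR-75-1, 250 nM), 1 to 5 lower and 0 to 2 higher (T47D, 50 nM), 1 to 3 lower (MDA-MB-468 minus ZR-75-1), 1 to 2 lower and 1 to 3 higher (MDA-MB-468 minus T47D), and 5 to 11 lower and 0 to 4 higher (ZR-75-1 minus T47D).

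Sign changes concerned values that were not called, up to 0.62 in size, except LINC03042 in T47D at 250 nM (-0.0058 by the probe set mean, against 0.52). After median-centring the values were 0.015 and 0.14 for EPB41L4A-AS1, 0.018 for MIR205HG, 0.036 for MRPL20-AS1, 0.058 and 0.12 for NGFR-AS1, 0.20 for SNORA33, and 0.026 and 0.070 for SNORA72 in MDA-MB-468 (50 nM first where 2 are given; MIR205HG and MRPL20-AS1 at 50 nM, SNORA33 at 250 nM); 0.15 for LINC03042 and 0.20 for NGFR-AS1 in ZR-75-1 at 250 nM; and 0.0057 for LINC00526 and 0.021 for MIR205HG in T47D at 250 nM. By quantile normalization they were 0.048 and 0.085 for NGFR-AS1, -0.11 for SNHG32, 0.24 for SNORA33 and 0.010 for SNORA72 in MDA-MB-468; 0.11 for LINC03042, 0.24 for MIR22HG and 0.23 for NGFR-AS1 in ZR-75-1; and 0.17 for MIR205HG in T47D. By the probe set mean they were 0.13 for MIR205HG in MDA-MB-468 at 50 nM; 0.27 for LINC03042 and -0.016 for MIR205HG at 250 nM and -0.032 for MALAT1 and -0.061 for ST20-AS1 at 50 nM in ZR-75-1; and -0.072 for MIR22HG in T47D at 250 nM.

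With 1 array left out, these uncalled changes crossed 0: at 250 nM in MDA-MB-468 EPB41L4A-AS1 (-0.15 to 0.030), LINC03042 (-0.021 to 0.27), NGFR-AS1 (-0.17 to 0.0057) and SNORA33 (-0.14 to 0.14); at 50 nM in MDA-MB-468 MIR205HG (-0.32 to 0.075), NGFR-AS1 (-0.27 to 0.11), SNORA33 (-0.0093 to 0.27) and SNORA72 (-0.42 to 0.19); at 50 nM in ZR-75-1 MIR1915HG (-0.22 to 0.0078), SNHG17 (-0.37 to 0.045), SNORA65 (-0.073 to 0.10), SNORA72 (-0.13 to 0.00019) and ST20-AS1 (-0.10 to 0.13); and at 50 nM in T47D LINC00526 (-0.44 to 0.077), LINC03042 (-0.025 to 0.34), MIR1915HG (-0.35 to 0.064), SNHG32 (-0.14 to 0.014) and SNORA72 (-0.20 to 0.25). Over every named gene and contrast 138 values changed sign, 1 of them of a called change.

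Replicate numbers did not show a pairing: deviations of same-numbered arrays correlated at -0.22 to 0.29. A replicate block within each line moved no count of members by over 1.5 times (all genes lower at 250 nM in ZR-75-1: 5463 against 5406) and ended 2 named calls (EPB41L4A-AS1 in T47D at 50 nM, adjusted p = 0.0662, and NGFR-AS1 in T47D at 250 nM, adjusted p = 0.0522) and made 3 (SNHG1 in MDA-MB-468 at 50 nM, adjusted p = 0.0184, and at 250 nM, adjusted p = 0.00765, and the LINC03042 difference of ZR-75-1 minus T47D, adjusted p = 0.0259, all limma). With 2 arrays per group, and 17 of 92 members not above background on all arrays, small changes of dim genes are not resolved. The cause of the differences between settings was not tested.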
